A study of Mus musculus with 4 samples.

Results

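The 3p arms of the mouse miRNAs numbered from miR-6896 to miR-7094 were examined across 4 arrays of intestinal epithelium and organoids. Members were all probes whose name gives a number in that range, with or without a letter, and the arm -3p: 201 of the 1900 miRNA probes on the array, all of which passed the quality marks. Total RNA was measured on miRNA arrays with 1 colour (Cy5) in mouse small intestine, separately for epithelial cells of villi and of crypts, and in organoids grown from crypts and taken at day 1 or day 5. No strain, age, allele or culture additive is given in the sources used here. Each group had 1 array, so there was no replicate spread between samples, and the comparisons describe these 4 arrays with no p-value.

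Mirtrons are miRNA hairpins made from short introns. In the usual pathway the Drosha complex cuts the hairpin out of a primary transcript. In a mirtron the spliceosome sets either or both ends of the hairpin, and Dicer then cuts it into a 5p and a 3p arm. Where splicing sets the last base of the hairpin, its 3p arm holds the end of the intron. That end is rich in pyrimidines and finishes with AG, the splice acceptor. Crypts hold the stem and dividing cells of the intestinal epithelium, villi carry its differentiated cells, and organoids grow crypt-like and villus-like regions in culture.

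The members as a set carried these marks of the end of an intron in their sequences. Of the 201, 177 were matched by name to a RefSeq mature sequence (build GRCm38.p6), and 138 of these (78.0%) ended in AG, against 56 of 498 other 3p arms on the array (11.2%) and 12 of 175 5p arms of the same number range (6.86%). The median share of C plus U was 72.2% in the members, 54.5% in other 3p arms and 31.8% in the 5p arms. The arms of 1 hairpin pair with each other, so their compositions are not independent. Hairpins were available for 172 members and had a median length of 66 bases, against 83 for 764 other hairpins with a probe. Of the 172, 162 (94.2%) ended in AG, compared with 9.42% of the other hairpins. In 128 of the 172 (74.4%) the mature 3p arm reached the last base of the hairpin. GU, the splice donor at the start of an intron, opened 23 of the 172 (13.4%), against 6.54% of the other hairpins. Only 19 of the 172 had both GU at the start and AG at the end, against 11 of the 764 others. Most member hairpins thus carried the mark of the intron's end but not that of its start. Of the 177 members with a position, 176 lay within the span of a protein-coding gene, on 19 chromosomes, and all 153 whose gene strand was given lay on the strand of that gene. Exon borders were not used here, so the intron of each member was not located.

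The sequences below belong to members among those with the largest differences between arrays. Capitals mark the seed, bases 2 to 8, which pairs with target mRNAs, and the final AG where there is one. Coordinates are on GRCm38.p6.
miR-7000-3p (chr2:92387384-92387405, minus strand, within Mapk8ip1): cACCCACCugccuguccuccAG
miR-7052-3p (chr7:44470391-44470411, plus strand, within Josd2): gCUCUGCCcccuccuucccAG
miR-7089-3p (chr9:109889689-109889710, plus strand, within Cdc25a): uCAGUGUCugcugucuccacAG
miR-7036b-3p (chr5:34574192-34574213, plus strand, within Add1): uUCCUGGUgggccucggggucc
miR-6975-3p (chr17:35244116-35244135, plus strand, within Ddx39b): uCUCUCCUuucuccuccuAG
miR-6901-3p (chr1:93274585-93274604, plus strand, within Sned1): gACCUUCUguguucuugcAG

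The hairpin of miR-7000 shows how a member sits at the end of its precursor. Capitals mark the 3p arm.
Mir7000 hairpin (chr2:92387384-92387446, minus strand): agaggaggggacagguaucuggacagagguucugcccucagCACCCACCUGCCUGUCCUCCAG

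Among the genes that hold these members, Mapk8ip1 encodes a scaffold protein of the JNK kinase pathway, Cdc25a (miR-7089) a phosphatase that drives the cell cycle, Add1 (miR-7036b) a protein of the membrane skeleton and Ddx39b (miR-6975) an RNA helicase of splicing and mRNA export. miR-7036b-3p does not end in AG.

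The members did not form a seed family. The 177 sequences held 169 different seeds, and 15 members shared their seed with another member, in 7 groups. The seed CACCCUG was the only one with 3 members.
miR-7018-3p (chr4:137538349-137538370, plus strand, within Hspg2): uCACCCUGcugccggcuugcAG
miR-7023-3p (chr4:149655504-149655525, minus strand, within Pik3cd): uCACCCUGucugcgccccucAG
miR-7068-3p (chr8:72470016-72470036, minus strand, within Cherp): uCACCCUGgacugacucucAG
These 3 arms share a seed but not a pattern of detection. miR-7023-3p was detected on all 4 arrays, miR-7068-3p on the villus and crypt arrays only, and miR-7018-3p on none. A set of 15 members, overlapping the first in miR-6932-3p and miR-7039-3p, shared a seed with a mouse miRNA outside the range. miR-7002-3p had the seed UGUGCUU of miR-218-5p, miR-7069-3p the seed CUGCCCU of miR-18a-3p, and miR-6932-3p and miR-7039-3p the seed CUGUUCU of miR-26b-3p and miR-26a-2-3p. A shared seed is a description of the sequence and was not followed to any target.

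Most members gave a signal above the blank spots, but a faint one. A member was called detected on an array where its spot intensity exceeded the mean plus 2 SD of that array's blank spots. By this limit the villus array detected 185 of 201 members (92.0%), the crypt array 152 (75.6%), the day 1 array 189 (94.0%) and the day 5 array 171 (85.1%). Over all 1897 miRNA probes used, the shares were 79.4% (villus), 66.8% (crypt), 82.0% (day 1) and 71.6% (day 5). The limits were an intensity of 107.9, 69.5, 82.3 and 70.5 on the villus, crypt, day 1 and day 5 arrays, and the members' median intensity was 149.1, 73.1, 115.4 and 81.0 in the same order. In that order, 18, 3, 29 and 7 members reached 2 times the limit, or 8.96%, 1.49%, 14.4% and 3.48%, against 23.4%, 8.01%, 21.2% and 12.4% of all probes. The 5p arms of the same range were brighter: 106, 19, 87 and 47 of 199 reached 2 times the limit. Brightness depends on each probe as well as on the RNA, so these counts are not amounts of either arm.

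The crypt array was the dimmest for the members and for all probes. There, 146 of 201 members and 1290 of 1897 probes lay within 10% of the detection limit, against 39 members and 582 probes (villus), 38 and 667 (day 1), and 78 and 1038 (day 5). Their median stood 5.72 above the blank mean on the crypt array, where blank spots had an SD of 1.02, and 48.6 above it on the villus array, with an SD of 3.66. The arrays differed in overall brightness as well: the Spike Control spots, probes for added RNA, stood above the blanks by 28361 (villus), 8540 (crypt), 16422 (day 1) and 8578 (day 5). Fewer cells that make a miRNA and less of it per cell cannot be told apart in these bulk samples.

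**Figure D1:**
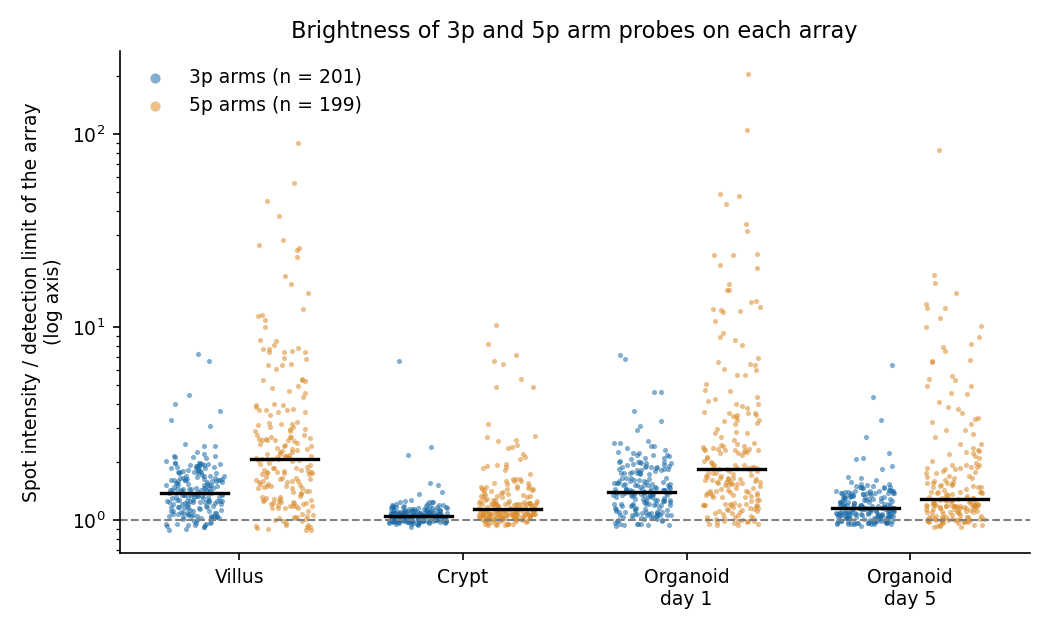
Spot intensity divided by the array's detection limit (log axis) for 201 3p arms (blue) and 199 5p arms (orange) on each array; each point is a probe, black bars are medians and the dashed line is the limit. Most 3p points lie under 2 times the limit, with 3 above it on the crypt array, and 5p arms reach higher on all 4 arrays.

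Detection on several arrays at once was the rule. Of the 201 members, 148 (73.6%) were detected on all 4 arrays, 23 on 3, 15 on 2, 6 on 1 and 9 on none. Over all miRNA probes 60.5% were detected on all 4 arrays and 12.6% on none. Of the 23 members seen on 3 arrays, 22 were missed on the crypt array alone, and 11 of the 15 seen on 2 arrays were those of the brighter villus and day 1 arrays. Which arrays missed a probe was counted for the members only, so no share over all probes stands beside these counts. The 6 seen on 1 array were named after their values were known: miR-6964-3p, miR-6983-3p, miR-6992-3p, miR-7061-3p and miR-7078-3p on day 1 only, and miR-7037-3p on the villus only. No member was seen on both organoid arrays and neither tissue array except miR-7092-3p, also named after its values were known. Whether the dimmer crypt signal or less RNA accounts for the missed members was not tested.

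Base composition went with detection. The median GC share was 57.1% in 132 sequenced members detected on all 4 arrays, 50% in 37 detected on 1 to 3 arrays, and 45.2% in 8 detected on none. The share ending in AG was 78.0%, 81.1% and 62.5% in the same order. The probes' own sequences were not used here, and the part of hybridisation strength in this order was not tested.

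For the comparisons, intensities were background-corrected with normexp, which adds an offset of 50, converted to log2 and brought to a common distribution by quantile normalization of the miRNA probes. Each difference is given relative to the median difference of all miRNA probes tested. Where only 1 of the 2 arrays detected a member, its difference is a lower bound in size. The offset exceeds the members' median signal above the blanks on every array, so the log2 differences of faint members are understated. Counts without an offset stand beside the main ones. For these, blank-subtracted values under 1 were set to 1, and differences that rest on a few units above the blanks can be overstated. On the log2 scale of corrected intensities, 20 control probes with 8 spots each had a median spot-to-spot SD of 0.092 (villus), 0.047 (crypt), 0.054 (day 1) and 0.034 (day 5). This is scatter within an array and leaves out that between animals or cultures.

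Markers of cell types were read on the 4 arrays. All 8 miRNAs of intestinal epithelium listed (miR-192, miR-194, miR-215 and the miR-200 family) were detected on all 4 arrays, as were the 2 endocrine ones. Such detection cannot tell villus from crypt or tissue from organoid, so it does not check those labels. The villus array also carried other cell types: 6 miRNAs of smooth muscle and fibroblasts summed to 83.3% of the Spike Control signal there, against 1.15% (crypt), 0.645% (day 1) and 0.477% (day 5), and 5 leukocyte miRNAs to 5.68% against 0.278% to 0.339%. Red blood cell markers summed to 7.52% on the villus array and to at most 0.179% elsewhere, and endothelial ones to 2.35% and at most 0.0811%. Their part in the villus values below was not tested. The deposited names give the villus, crypt and day 1 arrays a common code and the day 5 array a different one. If that code marks a slide, day 5 cannot be told apart from it.

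Villus against crypt, which differ in other cell types as well as in differentiation, left the members nearly level with the offset in place. Of 186 members tested, none exceeded its crypt level by 2-fold or more, whereas 3.84% of all miRNA probes did, and 1 fell short of it by 2-fold or more, against 3.33% of all. The median difference was 0.00 on the log2 scale, with an 80% range from -0.22 to 0.21, compared with -0.45 to 0.40 over all 1563 probes tested. With the blank mean subtracted and no offset, 15 members passed 2-fold upwards and 14 downwards, against 11.5% and 18.0% of all probes.

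The 1 member past 2-fold was miR-7000-3p. Its spot intensity was 778 (villus), 463 (crypt), 588 (day 1) and 448 (day 5), and it was detected on all 4. As a share of the Spike Control signal, which allows for the brightness of each array, it was 2.39% (villus), 4.63% (crypt), 3.10% (day 1) and 4.43% (day 5). Crypt was thus the highest on this scale, day 5 close to it, and villus the lowest. Relative to all miRNA probes the villus level of miR-7000-3p was 4.01-fold below that of the crypt (log2 difference -2.004), 3.15-fold lower on day 1 (-1.66) and 2.14-fold lower on day 5 (-1.10). With scaling to the median these 3 differences shrank to -0.15, -0.15 and -0.16, and with Spike Control scaling the day 5 difference was -0.92, under 2-fold. The other settings kept all 3 past 2-fold. The miRNAs of intestinal epithelium were lower on the same arrays, with list medians of -1.44, -2.33 and -1.67, and their part in this pattern was not tested. The 5p arm of miR-7000 was removed by its quality marks.

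Next to it came miR-7052-3p, with spot intensities of 432 (villus), 167 (crypt), 380 (day 1) and 233 (day 5). The crypt spot was the dimmest of the 4, on a dim array. Its difference between villus and crypt was -0.92, but 0.50 with scaling to the median, so its direction depends on the scaling. miR-7089-3p (-0.66), miR-7056-3p (-0.60, but 0.16 with scaling to the median) and miR-7029-3p (-0.60) followed. With no offset miR-7089-3p had -1.96 and miR-7029-3p -2.13, but with the background column subtracted miR-7089-3p had 0.33.

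The members highest on the villus relative to the crypt array were miR-6901-3p (0.61), miR-6986-3p (0.58), miR-6959-3p (0.55), miR-7003-3p (0.51) and miR-7036b-3p (0.43). miR-6901-3p, in the gene Sned1, had an intensity of 229 on the villus, 72.4 on the crypt, 94.6 on day 1 and 72.1 on day 5. It stood clear of the limit on the villus array and near it on the other three. Without an offset its difference was 1.78. Among members that the villus array detected and the crypt array did not, miR-6907-3p was at least 1.38-fold and miR-7055-3p at least 1.30-fold higher. In the reverse case, the villus level of miR-6935-3p was below its crypt level by at least 1.48-fold. miR-6935-3p lies within Actg1, the gene of cytoplasmic gamma-actin.

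**Figure D2:**
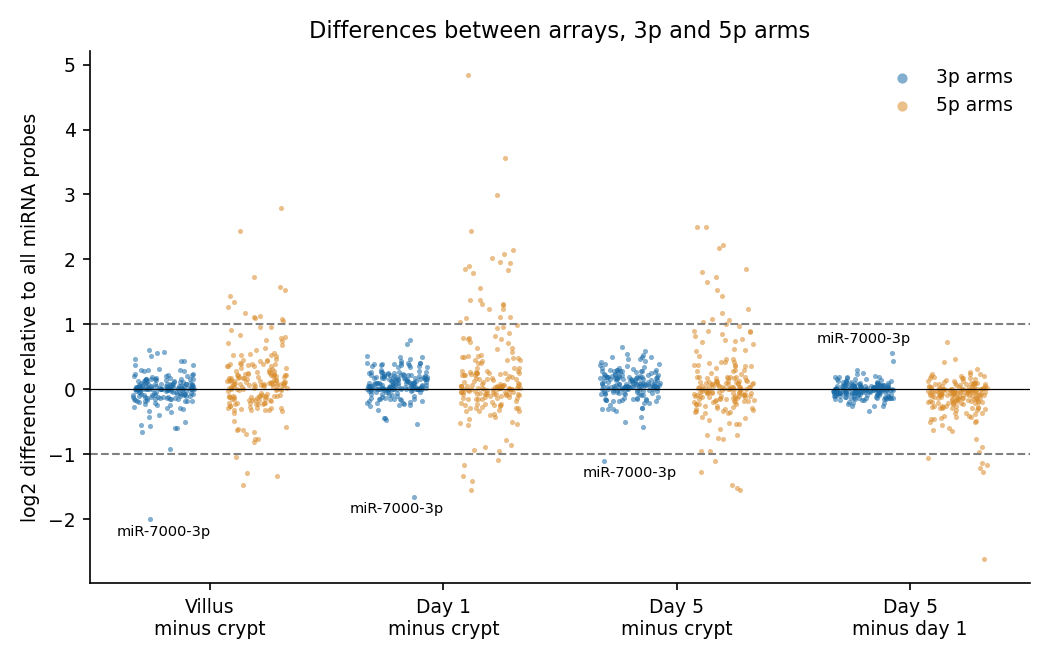
log2 differences relative to all miRNA probes for 3p arms (blue) and 5p arms (orange) in the 4 comparisons; each point is a probe detected on at least 1 of the 2 arrays, bounds included, and dashed lines mark 2-fold. Only miR-7000-3p passes a dashed line among the 3p arms, at -2.004, -1.66 and -1.10 against the crypt, while 5p arms spread to 4.84.

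Day 1 organoids against crypts asks how early cultures differ from the tissue they were grown from. Most members lay slightly above the median of all probes: 130 of 191 (68.1%) were above 0, against 48.8% of all probes tested, and the median was 0.07. That median was 0.22 with no offset, 0.31 in the deposited values and -0.01 with the background column subtracted. None was at least 2-fold higher (5.2% of all probes were) and 1, miR-7000-3p, was lower (6.2% of all). With no offset 24 were higher and 6 lower, against 15.3% and 20.5% of all probes.

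miR-7047-3p was the member that stood highest on day 1 against crypt. Its spots read 189 (villus), 74.9 (crypt), 207 (day 1) and 105 (day 5), so that both organoid arrays exceeded the crypt array and day 1 was the brightest. The log2 difference was 0.75, or 1.68-fold, and 1.73 with no offset. miR-7036b-3p read 396 on the villus, 86.1 on the crypt, 301 on day 1 and 148 on day 5. Its difference was 0.69 on day 1 and 0.55 on day 5, but -0.36 on day 5 with the background column subtracted. miR-6923-3p (0.52), miR-7031-3p (0.50) and miR-6975-3p (0.49) completed the 5 highest. After miR-7000-3p, the lowest were miR-7029-3p (-0.53), miR-7089-3p (-0.47), miR-6935-3p and miR-7052-3p (both -0.45), of which miR-7052-3p reached 0.74 under median scaling. miR-7089-3p had 0.15 with the background column subtracted. The largest bounds were at least 1.38-fold higher for miR-7055-3p and at least 1.19-fold lower for miR-7068-3p.

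Day 5 organoids against crypts gave a like picture with a few other names. Of 175 members, 124 (70.9%) were above 0, against 49.9% of all probes, and the median was 0.08, though 0.01 with the background column subtracted. Of the 175, 27 were bounds, against 301 of 1464 probes, and the share above 0 was not counted without them. The 148 members measured on both arrays had a median of 0.08, against 0.00 for all probes measured on both. None of the 175 was at least 2-fold higher (4.37% of all) and 1, miR-7000-3p, was lower (5.12% of all). With no offset 19 were higher and 7 lower, against 13.2% and 16.5% of all probes. miR-6975-3p led at 0.59, with an intensity of 180.0 on the villus, 72.4 on the crypt, 150.4 on day 1 and 99.8 on day 5. miR-7036b-3p (0.55), miR-6897-3p (0.53), miR-7062-3p (0.50, but -0.14 with the background column subtracted) and miR-7047-3p (0.50) came next. miR-6897-3p, within the gene of the glycoprotein-folding sensor Uggt1, had -0.46 with the background column subtracted. miR-7029-3p (-0.58), miR-7089-3p (-0.42), miR-7033-3p (-0.33) and miR-7056-3p (-0.31) were the lowest measured on both arrays after miR-7000-3p, but miR-7089-3p had 0.38 with the background column subtracted and miR-7056-3p 0.09 with scaling to the median. miR-7055-3p, detected on day 5 but not on the crypt array, was at least 1.58-fold higher, and miR-6935-3p, in the reverse case, at least 1.42-fold lower. The day 1 and day 5 comparisons share the crypt array, so their likeness is not a separate finding.

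Between day 1 and day 5 of culture the members moved least. Of 189 tested, none was at least 2-fold higher or lower (0.319% and 0.893% of all probes were), and the 80% range was -0.14 to 0.12. With no offset 4 were higher and none lower, against 6.51% and 4.08% of all probes. miR-7000-3p had the largest difference up, 0.56, followed by miR-7050-3p (0.44), whose intensity was 109.3 on day 1 and 96.3 on day 5. The largest difference down was in miR-7016-3p (-0.34), at 239 and 114. miR-6959-3p and miR-7017-3p (both -0.26), miR-7047-3p (-0.25) and miR-7012-3p (-0.22) followed, of which miR-6959-3p had 0.04 and miR-7012-3p 0.45 with the background column subtracted. miR-6897-3p (0.29), miR-7046-3p (0.26) and miR-7052-3p (0.24) came next upwards, but had -0.15, -0.16 and -0.29 with scaling to the median. The largest bound was 1.05-fold lower for miR-6971-3p, with its sign turned by scaling to the median and by subtracting the background column.

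**Figure D3:**
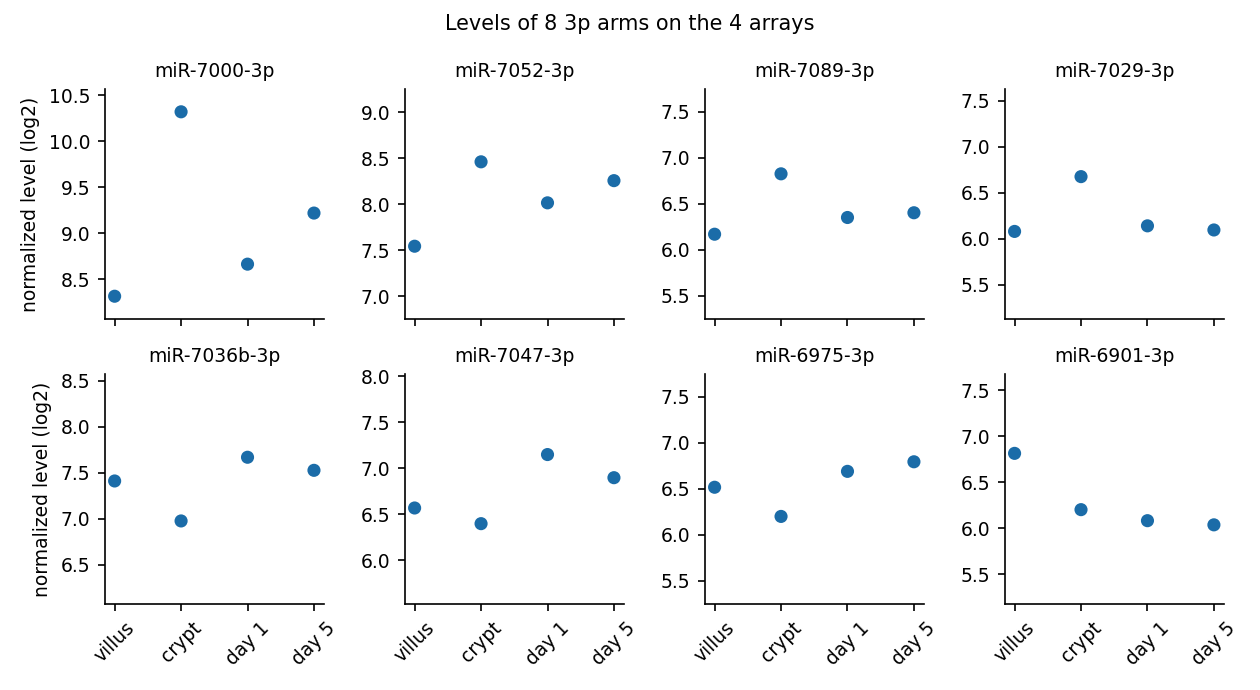
Levels (log2, after normexp and quantile normalization) of 8 named 3p arms on the 4 arrays, 1 panel per member and 1 point per array. miR-7000-3p, miR-7052-3p, miR-7089-3p and miR-7029-3p are highest on the crypt array, miR-7036b-3p and miR-7047-3p on day 1, miR-6975-3p on day 5 and miR-6901-3p on the villus array.

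Over all 4 arrays the spread of the members was small. For the 148 detected on all 4, the median range from the lowest to the highest array was 0.24 on the log2 scale, against 0.37 over 1148 probes and 0.46 over 172 5p arms. 1 of the 148 (0.676%) had a range of 1 or more, against 21.7% of all probes and 27.3% of 5p arms. With the blank mean subtracted and no offset the shares were 29.7%, 56.7% and 54.1%. With Spike Control scaling, where all probes shift between arrays, they were 93.9%, 87.2% and 91.3%, and the members no longer had the smallest share. The most level members were miR-7014-3p, miR-7032-3p and miR-6987-3p, with ranges of 0.04, 0.05 and 0.05. Among the 148, the crypt array held the lowest level for 69 and the villus array for 61, while day 1 held the highest for 54 and day 5 for 52. Among all 1148 probes, crypt held the lowest for 370 and villus for 348, while day 1 held the highest for 320 and day 5 for 228.

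The 3p arms spread less than their 5p partners. In each comparison a smaller share of 3p than of 5p arms passed 2-fold: 0.538% against 9.42% for villus minus crypt, 0.524% against 15.7% for day 1 minus crypt, 0.571% against 11.2% for day 5 minus crypt, and 0% against 3.17% for day 5 minus day 1. The same order held in all 40 combinations of setting and comparison, as did a smaller share than over all probes. Neither difference was tested, since probes are not replicates. The 40 combinations reprocess the same 4 arrays, so they are not separate support. Most of them keep the offset, which understates the differences of faint probes, and the 3p arms were fainter than the 5p arms. With the blank mean subtracted and no offset, 15.6%, 15.7%, 14.9% and 2.12% of 3p arms passed 2-fold in the same order. The 5p arms had 27.2%, 36.1%, 28.3% and 8.99%. The part of brightness in this contrast was not tested. Of 133 hairpins with both arms measured on day 1 and crypt, 26 had a 5p arm past 2-fold and none a 3p arm. The 5p arm had the larger difference in 68.4% of them, and across hairpins the 2 differences had a Pearson correlation of 0.12 (Spearman 0.15), as a description of probes that share both arrays.

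The hairpins with the most changed 5p arms show the contrast, and were chosen for those arms after their values were seen. The 5p arm of miR-6931 had an intensity of 2485 on the villus, 169.5 on the crypt, 16920.0 on day 1 and 1187 on day 5. Its 3p arm had 150.4, 70.7, 127.6 and 81.8 in the same order. The day 1 minus crypt difference was 4.84 for the 5p arm and 0.41 for the 3p arm. For miR-7036a it was 3.56 and 0.38, and for miR-6937 2.99 and 0.35. The offset understates such faint 3p arms: that of miR-6931 stood 3.31 above the blank mean on the crypt array. In the deposited values, which have no offset, it had 9.7 on the crypt and 36.7 on day 1. The 3p arm of miR-7036a had 28.7 and 78.7 there. The median of all probes moved by 0.44 (log2) between these 2 arrays in the deposited values. For miR-7077 the villus minus crypt difference was 2.79 in the 5p arm, while its 3p arm, at 122.5 on the villus and 67.1 on the crypt array, was not detected on the crypt and had a bound of 0.05.

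Named members went both ways beside their own 5p arms. The 5p arm of miR-7052 was higher on day 1 than on the crypt array by 1.85, where its 3p arm had -0.45, and that of miR-6935 by 2.02, where its 3p arm had -0.45. Both arms of miR-7047 were higher on day 1, by 2.09 in the 5p and 0.75 in the 3p arm, and its 5p arm had 2.18 on day 5, with 0.50 for the 3p arm. Both arms of miR-7003 were higher too, by 1.12 and 0.38. In other hairpins the 3p arm had the larger day 1 difference, with 0.69 against -0.23 for miR-7036b, 0.52 against 0.15 for miR-6923 and 0.50 against 0.11 for miR-7031. The same held between villus and crypt for miR-7089 (-0.66 against 0.09), miR-7056 (-0.60 against -0.13), miR-6986 (0.58 against 0.04) and miR-6901 (0.61 against 0.26). These 3p arms were named for their own large differences, which the choice favours. The 5p arm of miR-7033 was lower than on the crypt array by 1.48 on the villus, where the 3p arm had -0.56.

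**Figure D4:**
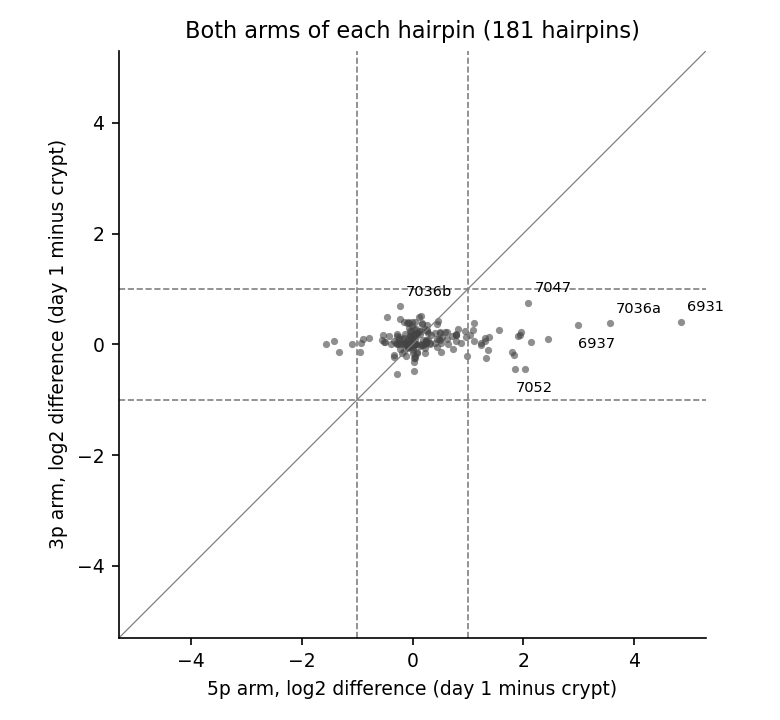
log2 difference of day 1 organoids minus crypt for the 3p arm (vertical axis) against the 5p arm (horizontal axis) of 181 hairpins, each point a hairpin with both arms detected on at least 1 of the 2 arrays; dashed lines mark 2-fold and the diagonal equal differences. The points spread along the 5p axis up to 4.84 for miR-6931, while no 3p arm exceeds 0.75.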

How the data were processed

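Total RNA of 4 mouse samples, 1 array each, received a Cy5 label from a miRCURY LNA kit, per the labels' protocols. Each deposited scanner table gives the median intensity of 3200 spots on a linear scale, combined from 3 gains by straight-line fits, per the file headers, with a second column named as background median. No source used here names the scanner software. That second column followed its own spot (correlation of log2 values 0.931 to 0.963) and was used only in an alternative. The authors' deposited processed values are intensities too, each column a straight-line function of the spot medians (largest residual 0.0535, zero at the blank mean, median 25).

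Spot medians were corrected with normexp (offset 50, limma 3.58.1, R 4.3.3), converted to log2 and quantile normalized across 1897 miRNA probes, after 3 were left out for quality marks. Detection was the mean plus 2 SD of 896 blank spots, the highest and lowest 5% left out. A difference was measured where both arrays detected the probe. Where 1 did, a bound was taken against that array's lowest detected level, or the dim probe's own level if higher. The script was tested on simulated data. The sequence and position of miR-7047-3p are not reported here.

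The members and lists were chosen with earlier results of these data known. In each of 4 comparisons the text names the 5 highest and 5 lowest measured members and the largest bound each way where there is one, and besides these the 3 most level members and seed groups of 3 or more. Alternatives were other scalings, backgrounds, detection limits and filters. With 1 array a group there was no test, and the number of arrays limits the precision.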

Additional observations from a re-analysis of the deposited data

How the results depend on the processing

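No paired analysis was possible because each group had 1 array, and no replicate could be left out. Values run in the order villus minus crypt, day 1 minus crypt, day 5 minus crypt, day 5 minus day 1. The median difference of the 3p arms relative to all probes was 0.00, 0.07, 0.08 and -0.01 as reported. Scaling to the median gave 0.0855, 0.198, 0.0895 and -0.0725. Spike Control scaling of blank-subtracted values gave 0.101, 0.301, 0.363 and -0.0666, and cyclic loess -0.00659, 0.0389, 0.0281 and -0.018. Blank-mean subtraction before quantile normalization gave 0.00275, 0.216, 0.308 and -0.0196, and the deposited values 0.072, 0.315, 0.267 and -0.0708. Subtracting the background column gave 0.00, -0.00697, 0.0146 and 0.00949, which reversed the second and the fourth. A 3 SD limit gave 0.00, 0.0621, 0.0617 and 0.00, members detected on all 4 arrays 0.0200, 0.0714, 0.0729 and -0.018, and no filter 0.0202, 0.0752, 0.0600 and -0.012. The cause of these shifts was not tested.

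Counts at least 2-fold higher, 0 in each comparison as reported, became 3, 6, 0 and 0 under median scaling, 16, 26, 27 and 4 under Spike Control scaling, 15, 24, 19 and 4 after blank-mean subtraction, and 10, 17, 15 and 3 in the deposited values. Counts lower, 1, 1, 1 and 0 as reported, became 0 in each under median scaling, 10, 9, 5 and 3 under Spike Control scaling, 14, 6, 7 and 0 after blank-mean subtraction, 9, 4, 5 and 3 in the deposited values, and 1, 2, 1 and 1 after background-column subtraction. Both directions together, Spike Control scaling called 14.0%, 18.3%, 18.3% and 3.70% of members, against 29.1%, 38.3%, 33.2% and 12.1% of all probes. Median scaling called 14.6%, 11.9%, 6.90% and 3.44% of all probes, and blank-mean subtraction 29.6%, 35.8%, 29.6% and 10.6%. The deposited values gave 28.9%, 38.2%, 32.4% and 11.2%, and background-column subtraction 7.04%, 7.39%, 7.10% and 3.32%. The share of members was smaller in each. Spike Control scaling moved the median of all probes by 1.20, 1.41, 0.85 and -0.49, the deposited values by 0.27, 0.44, 0.11 and -0.28, and median scaling by 0.13 in the first. A 3 SD limit detected 179 (villus), 144 (crypt), 185 (day 1) and 166 (day 5) members. Of 58 differences of named members, 12 changed sign after background-column subtraction and 10 under median scaling. None changed sign in the other settings, some of which could be computed for fewer members. Signal near the blanks on the crypt array limits each comparison with it.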
